A study of Mus musculus with 18 samples.

Results

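Layer 4 (L4) of the neocortex was compared between mice that received FOXP2 and mice that received GFP alone. The comparison holds 6 of the study's 18 libraries, taken by their titles: 3 FOXP2 libraries and 3 GFP libraries, each from 1 mouse. The FOXP2 arm joins 2 huFOXP2 mice, given the human FOXP2 cDNA together with Gfp cDNA, and 1 moFoxp2 mouse, given the mouse cDNA together with Gfp cDNA. The 3 GFP mice carry the label GFP and, as far as the labels tell, received Gfp with an empty plasmid. All 6 were CD-1 mice, which are outbred, so that one animal carries other alleles than the next. Plasmids entered the ventricular wall by in utero electroporation at E14.5, an embryonic stage, and the cortex was collected at postnatal day 7 from 300 µm sagittal sections, in which L4 was microdissected and pooled per mouse. The labels call the L4 cells GFP-positive, and they name neither the promoter of the plasmids nor the litters of the mice. A dissected layer holds all of its cell types, electroporated or not, and in such bulk RNA fewer cells of a type and less RNA per cell cannot be told apart.

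FOXP2 is a forkhead transcription factor that binds DNA as a dimer, alone or with FOXP1 or FOXP4, and mostly lowers the expression of its targets. In the mouse neocortex the endogenous gene is used mainly by corticothalamic neurons of layer 6, while the granular neurons of layer 4, which receive thalamic input and express Rorb, use little of it. Loss of FOXP2 function in humans causes a speech and language disorder, and the gene has been studied for its role in the growth of neurites, in synapse formation and in striatal circuits. Neurons born at the age of electroporation settle in the upper and middle layers, so introduced cDNA can place FOXP2 in cells that normally lack it.

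The L4 libraries held 11355985 to 14910233 counts in FOXP2 mice and 10111149 to 23026898 counts in GFP mice. The dissection was checked against Rorb, the nuclear receptor that marks L4 neurons. In CPM, read counts scaled to library size, here over all 18 libraries, Rorb averaged 219 ± 59.6 in L4 of FOXP2 mice, where L2-3 had 49.3 ± 9.21 and L5-6 had 116 ± 38.5 (SD, n = 3). In GFP mice it averaged 226 ± 30.9 in L4, 139 ± 60.8 in L2-3 and 71.4 ± 49.2 in L5-6. L4 thus had the highest Rorb mean in both arms, while the layer with the next mean was L5-6 in FOXP2 mice and L2-3 in GFP mice. The L4 library of GFP mouse 1 stood apart: on the first principal component (34.9% of the variance) it lay at -22.3 and the other 5 lay between 1.63 and 8.69. It also had the fewest counts, and mitochondrial genes took 5.25% of them, against 2.99% to 4.08% in the other L4 libraries. Gene calls and list medians that changed most without this library are given with and without it.

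Foxp2 was higher in every FOXP2 mouse than in every GFP mouse in L4. Reads assigned to the gene (ENSMUSG00000029563.16, mm10 chr6:14901349-15441977, plus strand) amounted to 478, 938 and 379 counts in the FOXP2 libraries (huFOXP2 mice 1 and 2, then the moFoxp2 mouse) and 61, 106 and 119 counts in the GFP libraries (mice 1, 2 and 3). Scaled to L4 library size, these were 32.2 and 63.0 CPM in the huFOXP2 mice and 33.5 CPM in the moFoxp2 mouse, against 5.80, 8.39 and 5.20 CPM in the GFP mice. huFOXP2 mouse 2 was the highest, the other huFOXP2 mouse and the moFoxp2 mouse were close to each other, and the lowest FOXP2 mouse was well above the highest GFP mouse. Foxp2 rose by 2.75 ± 0.30 (log2 fold change ± SE, FOXP2 over GFP) in L4, with a 95% interval of 2.07 to 3.42 (edgeR quasi-likelihood test, Benjamini-Hochberg adjusted p = 0.0247). The call was lost in 3 of the 6 omissions of 1 library: its adjusted p was 0.0533 without GFP mouse 1, 0.1003 without GFP mouse 3 and 0.0601 without the moFoxp2 mouse, with log2 fold changes of 2.70, 2.59 and 2.90, and it was kept without GFP mouse 2 (0.0380), huFOXP2 mouse 1 (0.0436) and huFOXP2 mouse 2 (0.0190). With the sex of the mouse as a term it was 0.1004. Sex was inferred from counts of Xist against Y-linked genes: huFOXP2 mouse 1 and GFP mouse 2 were female and the others male. Reads from the introduced cDNA and from the endogenous gene are counted together, and how much of the human cDNA aligns to the mouse gene was not tested.

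The level reached in L4 can be set beside the layer that uses the gene by itself. On the scale shared by all 18 libraries, L5-6 had 39.6, 77.7 and 69.4 CPM in the FOXP2 mice and 61.3, 68.5 and 52.4 CPM in the GFP mice, and the arms overlapped. In L2-3 the values were 20.2, 52.1 and 21.2 CPM in the FOXP2 mice, against 1.77, 6.54 and 5.22 CPM in the GFP mice, and the arms did not overlap. The L4 level of huFOXP2 mouse 2 (64.9 CPM) thus lay within the range of the L5-6 libraries of GFP mice, and the other 2 FOXP2 mice (33.3 and 34.8 CPM) lay below that range. huFOXP2 mouse 2 was the highest FOXP2 mouse in each of the 3 layers.

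**Figure D1:**
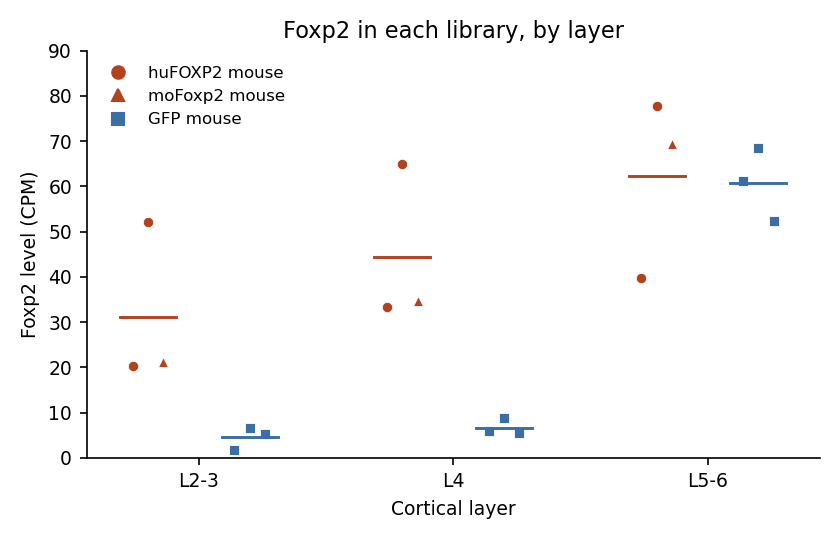
Foxp2 level in CPM (vertical axis) in each library of the 3 dissected layers (horizontal axis), with FOXP2 mice left of GFP mice in each layer and a line at the mean of each arm (n = 3 mice). In L4 the FOXP2 mice lie at 33.3, 64.9 and 34.8 CPM and the GFP mice at 5.95, 8.73 and 5.39 CPM, while in L5-6 the arms overlap.

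Beyond Foxp2, few differences in L4 were larger than the spread between mice. Of 14544 genes tested, 4 had an edgeR adjusted p under 0.05 (0.0275%), which is what passing means here: Foxp2 and the processed pseudogenes Gm6166 and Gm11942 were higher (3 genes, 0.0206%), and the processed pseudogene Rpsa-ps10 was lower (1 gene, 0.00688%). DESeq2, run on the same libraries with the same threshold, called 29 genes, 8 higher and 21 lower, with these 4 among them; its calls are given beside the genes below. Before adjustment 457 genes had a p under 0.05 (3.14%), 175 of them higher (1.2%) and 282 lower (1.94%) in FOXP2 mice. The arms did not overlap for 558 genes that were higher in each FOXP2 mouse than in each GFP mouse (3.84%) and for 562 that were lower (3.86%), together 7.7% of genes. The median log2 fold change over all genes was -0.0013, the central 90% of genes lay between -0.42 and 0.30, and 94.9% of genes lay within 0.5 of 0. For the 11210 genes with a mean of at least 5 CPM the median SE was 0.14 and the 95% interval reached a median of 0.31 to either side. Differences smaller than this were not detectable for the typical gene at this depth and number of mice. The interval is not adjusted for the number of genes tested, so larger differences could also fail to pass. Igsf21, for example, did not pass at -0.75 (edgeR adjusted p = 0.214). Among these 11210 genes, 8 were at least 2-fold higher and 15 at least 2-fold lower in the FOXP2 mice.

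**Figure D2:**
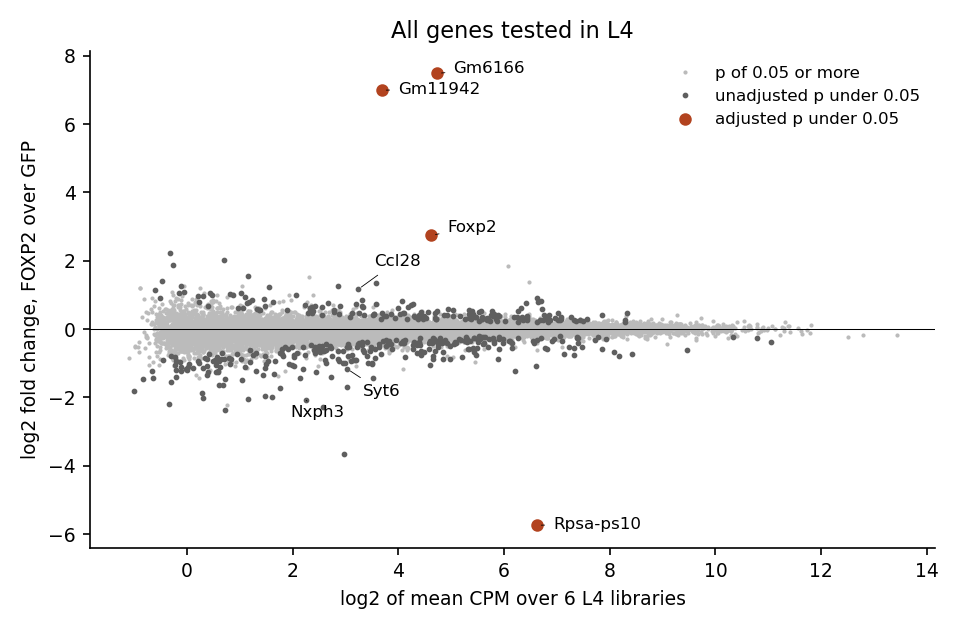
Log2 fold change in L4, FOXP2 over GFP (vertical axis), against the log2 of the mean CPM over the 6 L4 libraries (horizontal axis) for the 14544 genes tested. The 4 genes with an adjusted p under 0.05 stand clear of the cloud, at 7.49 (Gm6166), 6.99 (Gm11942), 2.75 (Foxp2) and -5.74 (Rpsa-ps10), and the genes with only an unadjusted p under 0.05 line its edges.

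The largest folds belonged to processed pseudogenes, which are copies of messenger RNAs written back into the genome. Each of the 3 aligns to the messenger RNA of a parent gene at 85% identity or more over at least 80% of its length, so a read may match both places. Stretches of the transcripts of Gm6166 and Rpsa-ps10 are shown because they carry this point: lower-case letters are shared with the parent messenger RNA in the best alignment, and capitals mark the bases of the pseudogene that differ or stand opposite a gap.
Gm6166 (GENCODE M21 transcript, mm10 chr9:57484058-57484357, plus strand; parent Fabp5): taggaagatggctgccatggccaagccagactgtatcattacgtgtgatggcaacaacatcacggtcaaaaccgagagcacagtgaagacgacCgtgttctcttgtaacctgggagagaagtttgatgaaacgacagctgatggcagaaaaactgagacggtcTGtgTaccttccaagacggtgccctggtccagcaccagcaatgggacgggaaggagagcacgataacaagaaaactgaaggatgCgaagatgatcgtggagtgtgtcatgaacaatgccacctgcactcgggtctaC
Rpsa-ps10 (GENCODE M21 transcript, mm10 chr3:150073243-150073542, minus strand; parent Rpsa): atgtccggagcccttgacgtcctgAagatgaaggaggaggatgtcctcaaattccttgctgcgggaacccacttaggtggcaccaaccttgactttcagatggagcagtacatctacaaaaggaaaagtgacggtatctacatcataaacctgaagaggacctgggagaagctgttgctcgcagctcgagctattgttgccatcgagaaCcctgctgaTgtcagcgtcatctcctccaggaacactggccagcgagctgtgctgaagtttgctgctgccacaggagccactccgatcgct
Over its whole length Gm6166 matched Fabp5 at 98.3% of positions, with 5 substitutions and 2 gap bases in 409 bases. Rpsa-ps10 matched Rpsa at 99.3% with 6 substitutions in 885 bases. The longest stretch without a difference was 179 bases in Gm6166 and 350 bases in Rpsa-ps10.

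Gm6166 (ENSMUSG00000074280.6, mm10 chr9:57483963-57484371) was nearly absent from the GFP libraries and present in all FOXP2 libraries. Its counts were 828, 749 and 600 in FOXP2 mice and 5, 5 and 3 in GFP mice, or 55.8 and 50.3 CPM in the huFOXP2 mice and 53.0 CPM in the moFoxp2 mouse, against 0.476, 0.396 and 0.131 CPM in the GFP mice. The FOXP2 mice were within a narrow band and far above the GFP mice, a log2 fold change of 7.49 ± 0.26 (edgeR adjusted p = 3.66e-06). Its parent Fabp5, which encodes a carrier of fatty acids and was named after its values were seen, had 229 and 213 CPM in the huFOXP2 mice and 214 CPM in the moFoxp2 mouse, against 288, 249.7 and 264 CPM in the GFP mice. Fabp5 was thus lower in every FOXP2 mouse, and its difference did not pass (-0.29 ± 0.09, adjusted p = 0.9998). Summed over Gm6166, Fabp5 and the 4 other genes that align this closely of the annotation, the arms had almost the same level, 272 ± 11.4 CPM in the FOXP2 mice, against 268 ± 19.5 CPM in the GFP mice (SD, n = 3 each).

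Gm11942 (ENSMUSG00000094344.1, mm10 chr4:32964888-32965232) showed the same pattern at lower counts. It had 41.1 and 18.2 CPM in the huFOXP2 mice and 17.7 CPM in the moFoxp2 mouse, against 0.0951, 0.158 and 0.262 CPM in the GFP mice, where these values stood for 1, 2 and 6 counts. All FOXP2 mice were above all GFP mice, huFOXP2 mouse 1 was the highest, and the log2 fold change was 6.99 ± 0.53 (edgeR adjusted p = 0.00142). Its parent Rplp1, a protein of the large ribosomal subunit, averaged 633 ± 76.6 CPM in the FOXP2 mice, against 589 ± 121 CPM in the GFP mice, and the arms overlapped. The pseudogene was thus a small part of the family sum, which was 659 ± 89.96 CPM over 15 genes in the FOXP2 mice and 590.3 ± 121 CPM in the GFP mice.

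Rpsa-ps10 (ENSMUSG00000047676.6, mm10 chr3:150072658-150073542) was lower in FOXP2 mice. It had 4.31 and 3.43 CPM in the huFOXP2 mice and 3.00 CPM in the moFoxp2 mouse, against 284, 182 and 115 CPM in the GFP mice. The GFP mice differed among themselves by more than 2-fold and were all far above the FOXP2 mice, a log2 fold change of -5.74 ± 0.36 (edgeR adjusted p = 3.98e-04). The parent Rpsa, a protein of the small ribosomal subunit that is also known as a laminin receptor, had 608 and 520.2 CPM in the huFOXP2 mice and 529 CPM in the moFoxp2 mouse, against 701, 459 and 558 CPM in the GFP mice, and its arms overlapped. The sum over the 18 genes that align this closely was 558 ± 48.9 CPM in the FOXP2 mice, against 768 ± 190.0 CPM in the GFP mice, and every FOXP2 mouse lay below every GFP mouse. Each of these pseudogenes passed in every alternative tried, and reads that the counting could have split between copies make their own levels uncertain.

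The pseudogene differences were present in the other layers too. On the scale of all 18 libraries Gm6166 ranged over the other layers from 44.9 to 57.9 CPM in FOXP2 mice and from 0.0510 to 0.956 CPM in GFP mice. Rpsa-ps10 averaged 4.64 ± 0.159 CPM in L2-3 and 3.05 ± 0.269 CPM in L5-6 of FOXP2 mice, against 228 ± 87.1 CPM and 213 ± 79.2 CPM in GFP mice. The layers of a mouse share the animal. The labels give no litters, so litter and arm cannot be told apart.

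**Figure D3:**
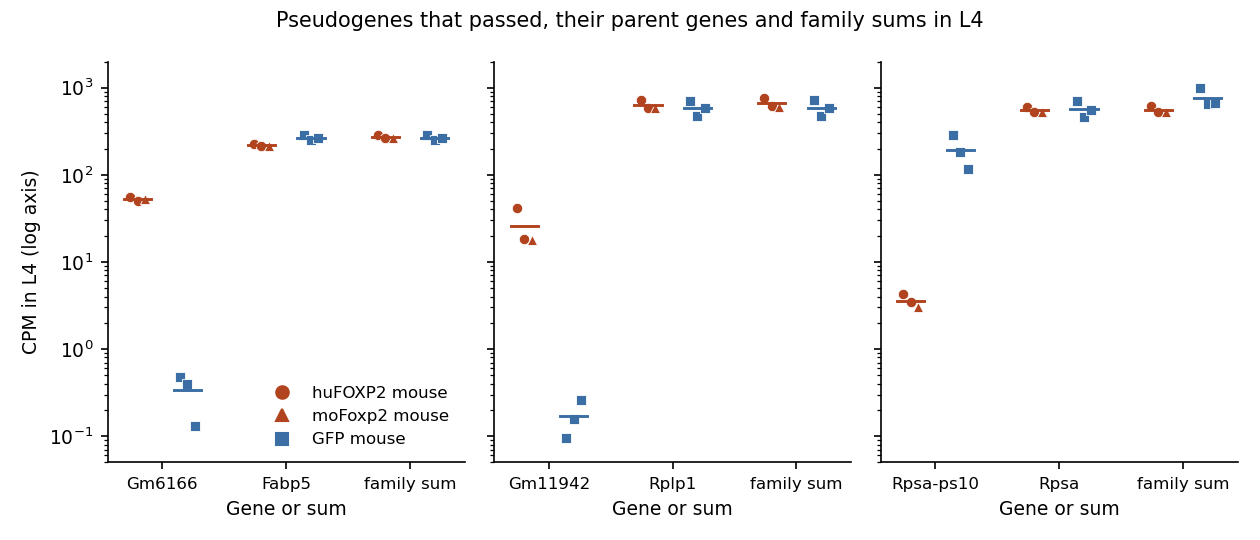
Levels in L4 in CPM (log axis) of the 3 pseudogenes that passed, of their parent genes and of the sum over each family, with FOXP2 mice left of GFP mice and a line at the mean of each arm (n = 3 mice). The pseudogenes separate the arms by a wide margin, for example 50.3 to 55.8 against 0.131 to 0.476 CPM for Gm6166, while Rplp1, Rpsa and the Gm6166 and Gm11942 family sums overlap between the arms; Fabp5 and the Rpsa-ps10 family sum are lower in every FOXP2 mouse.

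Genes reported as targets of FOXP2 did not separate the arms in L4. Of 11 such genes 10 were measured. Neither edgeR nor DESeq2 called any, none had an unadjusted p under 0.05, and their median log2 fold change was 0.13 (0.015 without GFP mouse 1, against -0.0013 over all genes). Cntnap2, a neurexin-family adhesion protein that FOXP2 binds and lowers in human neurons, had 162 and 164 CPM in the huFOXP2 mice and 157 CPM in the moFoxp2 mouse, against 104, 136 and 161 CPM in the GFP mice. GFP mouse 1 was the lowest and GFP mouse 3 lay among the FOXP2 mice, so the arms overlapped. The difference was 0.27 ± 0.14 (95% interval -0.06 to 0.60, edgeR unadjusted p = 0.0964), 0.12 without GFP mouse 1 and 0.43 without GFP mouse 3. Met, a receptor tyrosine kinase of developing cortical projection neurons, averaged 161 ± 13.9 CPM in the FOXP2 mice, against 132 ± 38.6 CPM in the GFP mice (0.29 ± 0.20). Sema6d, a transmembrane semaphorin, averaged 85.7 ± 6.11 CPM in the FOXP2 mice, against 96.5 ± 6.36 CPM in the GFP mice (-0.17 ± 0.10), and Nrn1, an activity-linked surface protein that promotes neurites, 3.37 ± 0.931 CPM in the FOXP2 mice, against 4.77 ± 1.11 CPM in the GFP mice (-0.51 ± 0.27).

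The arms overlapped for every measured partner of FOXP2. Of 12 genes of the Foxp family and its reported partners, Foxp2 itself rose and the other 11 did not pass, none of them with an unadjusted p under 0.05 (median over the 12, -0.03). Foxp1, which can dimerise with FOXP2 and is common in the upper and middle layers, had 133 and 208 CPM in the huFOXP2 mice and 222 CPM in the moFoxp2 mouse, against 174, 277 and 237 CPM in the GFP mice (-0.29 ± 0.21). Gatad2b, a subunit of the NuRD repressor complex, averaged 99.9 ± 5.61 CPM in the FOXP2 mice, against 92.3 ± 18.8 CPM in the GFP mice (0.11 ± 0.14).

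Several of the genes with the smallest p after the 4 that passed were lower in FOXP2 mice and are known from the deep layers. Igsf21, an adhesion protein of inhibitory synapses, had 35.6 and 31.4 CPM in the huFOXP2 mice and 31.6 CPM in the moFoxp2 mouse, against 49.5, 59.1 and 57.3 CPM in the GFP mice. All FOXP2 mice lay below all GFP mice, a difference of -0.75 ± 0.11 with the smallest p of any gene that did not pass (unadjusted p = 7.36e-05, adjusted p = 0.214, and 0.0465 without GFP mouse 1; DESeq2 adjusted p = 0.000308). Syt6, a synaptotagmin of corticothalamic neurons, had 4.04 and 5.17 CPM in the huFOXP2 mice and 5.91 CPM in the moFoxp2 mouse, against 13.2, 8.87 and 11.6 CPM in the GFP mice (-1.16 ± 0.22, edgeR adjusted p = 0.464, DESeq2 adjusted p = 0.00555). Nxph3, a secreted ligand of neurexins found in layer 6 and subplate neurons, had 1.41 and 1.28 CPM in the huFOXP2 mice and 2.83 CPM in the moFoxp2 mouse, against 10.4, 6.41 and 6.34 CPM in the GFP mice (-2.08 ± 0.34, edgeR adjusted p = 0.333, DESeq2 adjusted p = 5.10e-05). In each of these genes the arms did not overlap. For Igsf21 and Syt6 this was required by the rule that named genes of smallest p. The levels in L5-6 were far above those of L4: Syt6, for example, averaged 75.5 ± 25.3 CPM there in the FOXP2 mice, against 104 ± 23.5 CPM in the GFP mice.

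Other genes of this kind had the same order of arms. Pcp4, a calmodulin-binding peptide of deep-layer neurons, averaged 8.36 ± 0.946 CPM in the FOXP2 mice, against 15.1 ± 1.43 CPM in the GFP mice (-0.85 ± 0.16). Nefm, a neurofilament of large projection neurons, averaged 119.8 ± 26.3 CPM in the FOXP2 mice, against 202 ± 16.1 CPM in the GFP mice (-0.76 ± 0.15). S100a10, an annexin-binding protein of layer 5 cells, averaged 18.4 ± 2.06 CPM in the FOXP2 mice, against 31.8 ± 2.31 CPM in the GFP mice (-0.79 ± 0.13). For Pcp4, Nefm and S100a10 all FOXP2 mice lay below all GFP mice in L4, which the same rule required. None passed in edgeR (adjusted p = 0.464, 0.542 and 0.301), and DESeq2 called each of them (adjusted p = 0.0129, 0.00908 and 0.00101). In L5-6 their means were not lower in FOXP2 mice: Pcp4 averaged 40.7 ± 3.85 CPM there in the FOXP2 mice, against 37.7 ± 3.70 CPM in the GFP mice, and Nefm 483 ± 46.8 CPM in the FOXP2 mice, against 388 ± 73.5 CPM in the GFP mice. Of the 11 lower genes that the naming rule took without a pass, 5 (45.5%) were at least 2-fold higher in L5-6 than in L2-3 of GFP mice, against 1.86% of 11206 genes of at least 5 CPM. Of the 9 higher genes, 1 (11.1%) was. At any size of difference, 6 of the 11 lower genes (54.5%) and 3 of the 9 higher genes (33.3%) were higher in L5-6 of GFP mice. The share over the 11206 genes was 44.3%.

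The same held when genes were grouped by their layer pattern and not by their L4 difference. Genes of at least 5 CPM in L4, without those that passed, were binned by their log2 ratio of L5-6 over L2-3 in GFP mice. This ratio was the mean of log2(CPM + 1) in L5-6 minus that in L2-3. These libraries do not enter the L4 comparison but come from the same animals. The median L4 difference, FOXP2 over GFP, was 0.12 for the 27 genes with a ratio below -2, 0.14 for the 170 between -2 and -1 and 0.01 for the 9700 between -0.5 and 0.5. It was -0.13 for the 565 genes between 0.5 and 1, -0.21 for the 174 between 1 and 2 and -0.39 for the 34 above 2, of which 85.3% lay below 0. With ratios from FOXP2 mice the 3 deep-layer bins had -0.05, -0.18 and -0.43, while the bin of most upper-layer genes had -0.06 and the next 0.03. With GFP mouse 1 left out of both the ratios and the L4 difference, the deepest bin had -0.42 and the bin of most upper-layer genes -0.03. The lower L4 medians of deep-layer genes thus appeared under each of these choices, whereas the higher medians of genes with a ratio below -2 did not. How the cuts between the layers fell in each mouse was not measured directly. The list of L4 markers, described below, summed in L2-3 to 95.1 to 101 CPM in FOXP2 mice and 159 to 279 CPM in GFP mice. In L5-6 it summed to 152 to 251 CPM in FOXP2 mice and 83.1 to 198 CPM in GFP mice. The arms were thus apart in L2-3 and overlapped in L5-6. The part of the cuts in the L4 result was not tested.

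**Figure D4:**
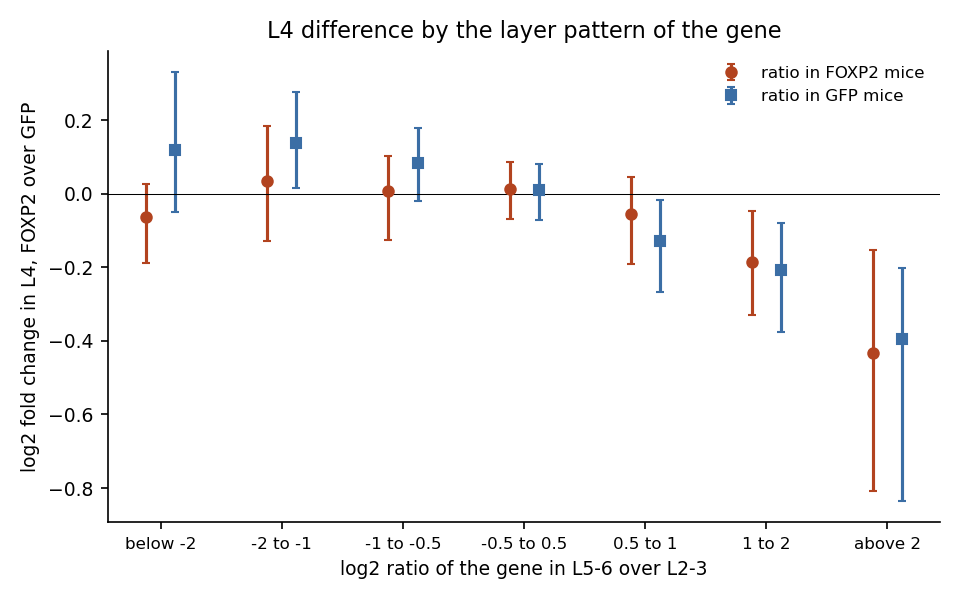
Median log2 fold change in L4, FOXP2 over GFP (vertical axis), of genes grouped by their log2 ratio of L5-6 over L2-3 (horizontal axis), taken from FOXP2 mice (circles) or GFP mice (squares); bars span the lower to the upper quartile of the genes. The medians fall to -0.43 and -0.39 in the bin of most deep-layer genes.

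Among the lists of layer markers, those of the deep layers had the lowest medians. The list of layer 6 and subplate neurons had 13 measured genes of 14, with 9 of them below 0 (against 50.4% of all genes). None passed in edgeR, and DESeq2 called 3 as lower, Nxph3, Syt6 and Rprm (adjusted p = 0.0111). The list had 5 members that were lower with an unadjusted p under 0.05 (against 1.94% of all genes), 5 that were lower without overlap of the arms (against 3.86%), and a median of -0.52 (-0.25 without GFP mouse 1). Rprm, a cell cycle inhibitor used as a marker of layer 6, had 39.5 and 30.7 CPM in the huFOXP2 mice and 54.9 CPM in the moFoxp2 mouse, against 78.3, 82.8 and 69.9 CPM in the GFP mice (-0.89 ± 0.19). Hs3st4, a heparan sulfate sulfotransferase, averaged 57.7 ± 14.6 CPM in the FOXP2 mice, against 85.2 ± 13.9 CPM in the GFP mice (-0.56 ± 0.19). Tbr1, the transcription factor that specifies layer 6 corticothalamic neurons, did not follow them: it averaged 70.2 ± 6.72 CPM in the FOXP2 mice, against 74.0 ± 10.6 CPM in the GFP mice, the arms overlapped, and the sign of its difference (-0.08 ± 0.13) turned when GFP mouse 3 or huFOXP2 mouse 2 was left out. Summed over the list, L4 had 479, 474 and 523 CPM in the FOXP2 mice, against 549, 608 and 541 CPM in the GFP mice, where L5-6 had 939.9 to 1422 CPM in the FOXP2 mice, against 1066 to 1511 CPM in the GFP mice. The L4 sums did not overlap between the arms and stood well under those of L5-6 in both.

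Layer 5 markers had a median of -0.32 (-0.51 without GFP mouse 1) over 12 measured genes. Of these, 4 were lower and 1 higher with an unadjusted p under 0.05 (against 1.94% and 1.2% of all genes), and neither edgeR nor DESeq2 called any. Summed over the list, L4 had 210, 202 and 251 CPM in the FOXP2 mice, against 195, 353 and 266 CPM in the GFP mice. These sums overlapped between the arms, and GFP mouse 1 was the lowest. Fezf2, the transcription factor that specifies subcortically projecting neurons, had 8.62 and 16.1 CPM in the huFOXP2 mice and 22.6 CPM in the moFoxp2 mouse, against 24.1, 44.97 and 28.1 CPM in the GFP mice (-1.05 ± 0.33). Crym, a thyroid hormone-binding protein of layer 5 neurons, had 7.74 and 4.23 CPM in the huFOXP2 mice and 6.80 CPM in the moFoxp2 mouse, against 9.03, 27.4 and 13.9 CPM in the GFP mice (-1.43 ± 0.39). In both genes the arms did not overlap, and GFP mouse 2 was the highest library. Parm1, a mucin-like membrane protein, lay the other way, with 48.7 ± 2.37 CPM in the FOXP2 mice, against 32.5 ± 7.75 CPM in the GFP mice (0.57 ± 0.16). Over 21 transcription factors of projection neuron fate, which include Fezf2 and Cux1, the median was 0.08 (-0.01 without GFP mouse 1), with 3 higher and 1 lower at an unadjusted p under 0.05. Bcl11b, which directs the axons of corticospinal neurons, averaged 39.7 ± 5.25 CPM in the FOXP2 mice, against 46.9 ± 17.2 CPM in the GFP mice (-0.24 ± 0.24), and its arms overlapped.

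Markers of the middle and upper layers showed smaller medians. Of 7 L4 markers 5 were measured, with a median of -0.08 (-0.13 without GFP mouse 1). Adam33 and Endou were under the filter on low counts. Of the 5, 4 lay below 0 (against 50.4% of all genes), and 1 was lower with an unadjusted p under 0.05 (against 1.94%). Rorb had 149 and 223 CPM in the huFOXP2 mice and 262 CPM in the moFoxp2 mouse, against 234, 183 and 239 CPM in the GFP mice, so the arms overlapped (-0.05 ± 0.19). Whrn, a scaffold protein, averaged 32.1 ± 7.45 CPM in the FOXP2 mice, against 47.8 ± 13.9 CPM in the GFP mice (-0.57 ± 0.22), and Scnn1a, a sodium channel subunit used to mark L4 neurons, 3.67 ± 1.37 CPM in the FOXP2 mice, against 4.52 ± 1.15 CPM in the GFP mice (-0.29 ± 0.31). All 11 markers of layers 2-3 were measured, with 9 above 0 (against 49.6% of all genes), 3 higher with an unadjusted p under 0.05 (against 1.2%) and a median of 0.12. Lamp5, Pou3f2 and Cux1 were those 3. Cux1, a homeodomain protein of upper-layer neurons, had 332 and 349.6 CPM in the huFOXP2 mice and 323 CPM in the moFoxp2 mouse, against 269, 287 and 310.4 CPM in the GFP mice (0.21 ± 0.09). Its arms did not overlap and lay close together. Pou3f2, a POU factor of upper-layer neurons, averaged 124 ± 13.1 CPM in the FOXP2 mice, against 92.9 ± 14.8 CPM in the GFP mice (0.42 ± 0.14). Genes of glutamatergic neurons as a class had a median of -0.0048 (-0.01 without GFP mouse 1), with none of 8 under an unadjusted p of 0.05.

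Interneuron genes were, for the most part, higher in FOXP2 mice. Of 19 genes 17 were measured, and 16 lay above 0, against 49.6% of all genes. The list had 9 members that were higher with an unadjusted p under 0.05 (against 1.2% of all genes), 7 that were higher without overlap of the arms (against 3.84%), and a median of 0.35 (0.28 without GFP mouse 1). Neither edgeR nor DESeq2 called any of them. Vip, the neuropeptide of one class of cortical interneurons, had 33.7 and 32.2 CPM in the huFOXP2 mice and 28.8 CPM in the moFoxp2 mouse, against 24.3, 22.3 and 18.9 CPM in the GFP mice (0.54 ± 0.13, adjusted p = 0.793). Gad1, an enzyme that makes GABA, had 85.7 and 89.1 CPM in the huFOXP2 mice and 79.6 CPM in the moFoxp2 mouse, against 57.0, 69.6 and 73.0 CPM in the GFP mice (0.35 ± 0.12). Dlx1, a homeodomain factor of interneurons, averaged 56.5 ± 1.79 CPM in the FOXP2 mice, against 45.2 ± 4.25 CPM in the GFP mice (0.32 ± 0.10), and Adarb2, which marks interneurons from the caudal ganglionic eminence, 27.6 ± 4.85 CPM in the FOXP2 mice, against 19.4 ± 2.23 CPM in the GFP mice (0.51 ± 0.16). For Vip, Gad1, Dlx1 and Adarb2 every FOXP2 mouse lay above every GFP mouse, and Vip was also named by the rule that required this. Summed over the list, L4 had 846, 819 and 745 CPM in the FOXP2 mice, against 532, 729 and 718 CPM in the GFP mice, while L2-3, above it, had 983 to 1105 CPM in FOXP2 mice and 545 to 790.3 CPM in GFP mice. The sums of the arms did not overlap in either layer, and in L4 the lowest FOXP2 mouse and the highest GFP mouse were close. Pnoc, a neuropeptide precursor also found in interneurons, was taken by the rule of smallest p and had 12.2 ± 0.577 CPM in the FOXP2 mice, against 7.56 ± 0.584 CPM in the GFP mice (0.69 ± 0.15).

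**Figure D5:**
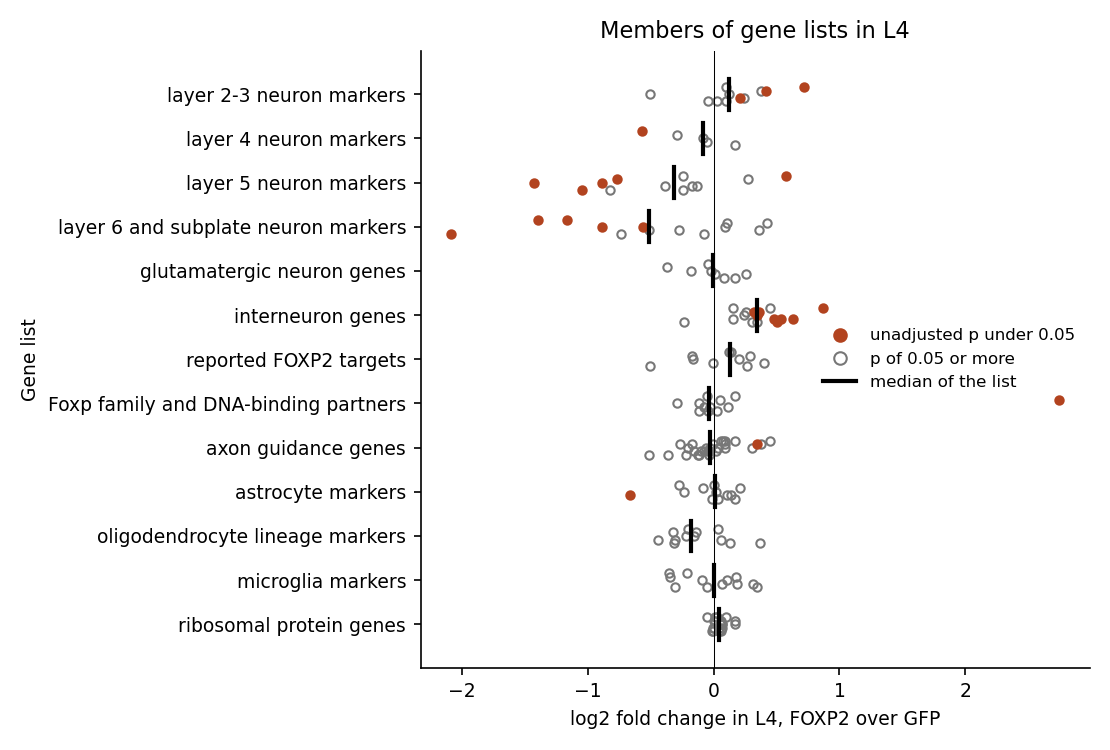
Log2 fold change in L4, FOXP2 over GFP (horizontal axis), of each measured member of 13 gene lists (vertical axis), with a bar at the median of each list. Members with an unadjusted p under 0.05 are filled; apart from Foxp2 at 2.75, no member had an edgeR adjusted p under 0.05, while DESeq2 also called Nxph3, Syt6 and Rprm, and the medians range from -0.52 for layer 6 and subplate markers to 0.35 for interneuron genes.

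Another set of genes had differences in the same direction in every layer of the same mice. E130311K13Rik, a gene of no well-known function, had 6.33 and 8.20 CPM in the huFOXP2 mice and 8.12 CPM in the moFoxp2 mouse, against 16.0, 14.49 and 14.7 CPM in the GFP mice (-0.997 ± 0.16, edgeR adjusted p = 0.301, DESeq2 adjusted p = 0.00101). On the scale of all 18 libraries it averaged 6.27 ± 1.45 CPM in L2-3 and 7.73 ± 1.03 CPM in L5-6 of FOXP2 mice, against 14.1 ± 2.12 and 13.8 ± 2.74 CPM in GFP mice. Ccl28, a chemokine, had 14.48 and 13.6 CPM in the huFOXP2 mice and 11.2 CPM in the moFoxp2 mouse, against 5.33, 3.56 and 8.31 CPM in the GFP mice (1.16 ± 0.28, edgeR adjusted p = 0.786, DESeq2 adjusted p = 0.0372). Its means in L2-3 and L5-6 were 11.2 ± 3.39 and 13.8 ± 3.91 CPM in the FOXP2 mice, against 5.39 ± 2.53 and 4.99 ± 2.39 CPM in the GFP mice. The arms of both genes did not overlap in L4, which the rule that named them required, and the direction was that of L4 in both other layers. Coq2, an enzyme of coenzyme Q synthesis, averaged 22.1 ± 2.57 CPM in the FOXP2 mice, against 35.2 ± 3.35 CPM in the GFP mice in L4 (-0.67 ± 0.13). Acaa1a, a thiolase of fatty acid oxidation in peroxisomes, averaged 37.2 ± 2.89 CPM in the FOXP2 mice, against 24.5 ± 3.99 CPM in the GFP mice (0.60 ± 0.14), and P3h4, an endoplasmic reticulum protein of collagen modification, 14.9 ± 1.12 CPM in the FOXP2 mice, against 9.03 ± 1.74 CPM in the GFP mice (0.73 ± 0.17). Tmtc4, a mannosyltransferase of the endoplasmic reticulum, had 139 and 121 CPM in the huFOXP2 mice and 127 CPM in the moFoxp2 mouse, against 48.1, 87.3 and 71.4 CPM in the GFP mice (0.90 ± 0.19). DESeq2 also called Coq2 (adjusted p = 0.0139) and Tmtc4 (adjusted p = 0.00772), and edgeR called none of these genes. Coq2, Acaa1a, P3h4 and Tmtc4 had the same order of arm means in L2-3 and L5-6 too.

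The remaining genes taken for their small p were of varied function. Vxn, known from frog embryos to promote neuronal differentiation, had 126 and 88.1 CPM in the huFOXP2 mice and 109 CPM in the moFoxp2 mouse, against 71.7, 61.1 and 58.5 CPM in the GFP mice (0.76 ± 0.14). Rgs4, which shortens signals of G protein-coupled receptors, averaged 132 ± 27.4 CPM in the FOXP2 mice, against 75.3 ± 17.5 CPM in the GFP mice (0.81 ± 0.19), and mt-Tc, a mitochondrial transfer RNA, 24.1 ± 2.64 CPM in the FOXP2 mice, against 14.6 ± 1.42 CPM in the GFP mice (0.73 ± 0.14). Among lower genes, Plcd3, a phospholipase, averaged 15.9 ± 1.79 CPM in the FOXP2 mice, against 27.0 ± 3.93 CPM in the GFP mice (-0.76 ± 0.15), and Clgn, a chaperone of the endoplasmic reticulum, 6.13 ± 0.776 CPM in the FOXP2 mice, against 11.5 ± 1.14 CPM in the GFP mice (-0.90 ± 0.17). Col6a2, a collagen of the meninges and vessels, averaged 7.24 ± 1.70 CPM in the FOXP2 mice, against 14.3 ± 0.230 CPM in the GFP mice (-0.98 ± 0.18). Gm15564, annotated as antisense, averaged 105 ± 15.9 CPM in the FOXP2 mice, against 174 ± 18.6 CPM in the GFP mice (-0.73 ± 0.13); without knowledge of the strand its reads cannot be told from those of an overlapping gene. In all 7 genes the arms did not overlap, which the rule that named them required. None passed in edgeR, and DESeq2 called all 7, with adjusted p from 0.00311 for Vxn and Gm15564 to 0.0372 for Rgs4.

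Receptors, channels, adhesion molecules and guidance cues showed no member that edgeR or DESeq2 called. The medians were 0.11 for 12 GABA-A receptor subunits, -0.05 for 17 ionotropic glutamate receptor subunits, -0.0040 for 7 metabotropic glutamate receptors and 0.05 for 18 potassium and HCN channels. They were 0.04 for 16 contactin, Cntnap, neurexin and neuroligin genes, 0.11 for 16 cadherins and -0.03 for 29 axon guidance genes. Without GFP mouse 1 each of these 7 medians was below 0, from -0.03 for GABA-A subunits to -0.19 for guidance genes. Grm2, a presynaptic receptor, had 74.4 and 78.0 CPM in the huFOXP2 mice and 95.5 CPM in the moFoxp2 mouse, against 103, 104 and 107 CPM in the GFP mice (-0.34 ± 0.11). Its relative Grm4 averaged 91.0 ± 25.03 CPM in the FOXP2 mice, against 62.5 ± 4.21 CPM in the GFP mice (0.54 ± 0.19), with huFOXP2 mouse 1 among the GFP mice. Sema3a, a secreted semaphorin that repels axons, had 55.1 and 51.0 CPM in the huFOXP2 mice and 53.9 CPM in the moFoxp2 mouse, against 34.2, 45.4 and 45.9 CPM in the GFP mice (0.35 ± 0.13). Sema3a was the only guidance gene, and Grm2 and Grm4 the only metabotropic receptors, with an unadjusted p under 0.05, and no GABA-A, ionotropic glutamate, potassium channel, contactin-group or cadherin gene had one.

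Activity-induced and stress genes varied between mice. Fos, an immediate early gene, had 2.36 and 5.98 CPM in the huFOXP2 mice and 2.91 CPM in the moFoxp2 mouse, against 21.9, 7.44 and 8.13 CPM in the GFP mice (-1.70 ± 0.48). All FOXP2 mice lay below all GFP mice, with GFP mouse 1 the highest by far, and the sign was the same without it. The other members of the list did not share this order: Egr3, an early growth response factor, averaged 55.6 ± 17.0 CPM in the FOXP2 mice, against 38.5 ± 7.60 CPM in the GFP mice (0.52 ± 0.23), and the median over 13 genes was -0.13 (-0.08 without GFP mouse 1). Atf3, a stress-induced transcription factor, had 1.14 and 1.21 CPM in the huFOXP2 mice and 0.795 CPM in the moFoxp2 mouse, against 0.380, 0.396 and 0.394 CPM in the GFP mice (1.42 ± 0.36). These levels rest on few reads per library, close to the filter on low counts, so the fold of Atf3 is uncertain. The median over 9 heat shock and stress genes was 0.13. Of 9 cell cycle genes Mki67, a protein of proliferating cells, averaged 18.3 ± 1.41 CPM in the FOXP2 mice, against 23.7 ± 2.64 CPM in the GFP mice (-0.37 ± 0.13), and the median was 0.0045 (0.09 without GFP mouse 1). None of these genes passed in edgeR, and DESeq2 called Fos (adjusted p = 0.0497).

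Genes of cell types other than cortical neurons, which could change the make-up of a dissected layer, did not separate the arms as lists. Medians were 0.01 for 12 astrocyte markers (0.13 without GFP mouse 1), -0.18 for 12 genes of the oligodendrocyte lineage (0.07 without GFP mouse 1), 0.01 for 12 microglia markers (0.33 without GFP mouse 1), -0.04 for 11 endothelial and mural genes (0.07 without GFP mouse 1), -0.27 for 10 meningeal genes (-0.67 without GFP mouse 1) and 0.05 for 20 ribosomal protein genes (0.16 without GFP mouse 1). Aldoc, a glycolytic enzyme of astrocytes, was the only member of these lists with an unadjusted p under 0.05, at 209 and 164 CPM in the huFOXP2 mice and 258 CPM in the moFoxp2 mouse, against 466, 211 and 322 CPM in the GFP mice (-0.66 ± 0.26). The microglia sum was 392, 285 and 238 CPM in the FOXP2 mice, against 440, 223 and 293 CPM in the GFP mice, so mice within an arm differed more than the arms did. Photoreceptor genes, which the cortex does not use, summed to 24.8 CPM in L4 of huFOXP2 mouse 1 and to 1.47 to 2.63 CPM in the other 5 L4 libraries. Of the 9 genes 1 passed the filter on low counts, and the part of such RNA in the other values was not tested. Markers of neighbouring tissue had medians of 0.20 over 6 striatal genes, 0.33 over 4 hippocampal genes (0.21 without GFP mouse 1) and -0.12 over 2 genes of Cajal-Retzius cells (0.0052 without it). Foxj1, the ciliary factor of ependyma and its only measured marker, averaged 2.19 ± 0.524 CPM in the FOXP2 mice, against 4.17 ± 1.82 CPM in the GFP mice (-0.95 ± 0.35). Medians were 0.09 over 4 red blood cell genes, 0.04 over 4 interferon response genes and -0.08 over 12 retinoic acid pathway genes, and without GFP mouse 1 they were 0.19, 0.22 and -0.01. Neither edgeR nor DESeq2 called a member of the lists of other cell types and tissues.

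The FOXP2 effect in L4 was then set against the mean of the effects in L2-3 and L5-6, with the mouse as a block over all 18 libraries. In edgeR 0 of 15952 genes passed (0%), and 726 had an unadjusted p under 0.05 (4.55%). Foxp2 had a larger log2 fold change in L4 than the mean of the other layers, by 1.35 ± 0.32 (edgeR unadjusted p = 0.000888), and this did not pass (adjusted p = 0.696). That mean joins 2 unlike layers. On the scale of all 18 libraries Foxp2 averaged 31.2 against 4.51 CPM in L2-3 (FOXP2 against GFP mice). L4 had 44.3 against 6.69 CPM. In L5-6 the arms were close, at 62.3 against 60.7 CPM, so the rise was not particular to L4. Among deep-layer genes Nxph3 had -2.33 ± 0.57, Pcp4 -0.96 ± 0.25, S100a10 -0.84 ± 0.24 and Syt6 -1.13 ± 0.34, so their log2 fold changes were lower in L4 than in the other layers, each with an adjusted p of 0.696 or more. Lum, a proteoglycan of meningeal fibroblasts, had the smallest p of the named genes (-1.06 ± 0.20, adjusted p = 0.479). E130311K13Rik (0.01 ± 0.22), Ccl28 (-0.04 ± 0.18) and Coq2 (-0.13 ± 0.14) had values near 0, and so had Cntnap2 (0.06 ± 0.09). The pseudogenes had 0.28 ± 0.59 (Gm6166), 0.71 ± 0.49 (Gm11942) and 0.16 ± 0.14 (Rpsa-ps10), with unadjusted p of 0.648, 0.164 and 0.274.

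Within the FOXP2 arm, human and mouse FOXP2 could be compared only with 2 huFOXP2 mice and 1 moFoxp2 mouse, which was assumed to vary like the others. In edgeR 0 of 14544 genes passed (0%), and 361 had an unadjusted p under 0.05 (2.48%). Foxp2 differed by 0.51 ± 0.40 (huFOXP2 over moFoxp2), a value set by huFOXP2 mouse 2: it was -0.06 without that mouse and 0.91 without huFOXP2 mouse 1. Cntnap2 differed by 0.06 ± 0.24 and Gm6166 by 0.0018 ± 0.25. Lamp5, a membrane protein of upper-layer neurons and some interneurons, had 27.2 and 27.3 CPM in the huFOXP2 mice and 16.0 CPM in the moFoxp2 mouse, against 12.7, 14.2 and 15.9 CPM in the GFP mice, a difference of 0.77 ± 0.21 between huFOXP2 and moFoxp2 mice with an adjusted p of 0.9998. The moFoxp2 mouse lay just above the highest GFP mouse. Cntnap1, an axonal protein of the paranode, differed by 0.83 ± 0.19 (adjusted p = 0.9998). With 1 moFoxp2 mouse, a difference between the proteins and a difference between animals cannot be told apart.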

How the data were processed

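RNA from dissected cortical layers of 6 CD-1 mice was sequenced from Illumina TruSeq libraries, 18 in all, and the 6 L4 libraries entered the main comparison. The authors deposited 1 table of raw read counts per gene over 54446 gene IDs. The submitters' processing notes name STAR, HTSeq and mm10; their versions, the strand setting and the handling of reads with several matches are not stated there or in the labels. Of the IDs, 53229 matched GENCODE M21 with their version and 54409 without it. The table has no row of unassigned reads.

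Counts were tested with edgeR 4.0.16 in R 4.3.3 (quasi-likelihood test, TMM scaling, filterByExpr with a minimum count of 10 and a minimum total of 15, 2 arms in the fit) and p was adjusted over all genes tested by the Benjamini-Hochberg method with a threshold of 0.05. SE was computed as |log2 fold change| over the root of the F statistic. L4 was set against the other layers in a fit of all 18 libraries with the mouse as a block, since the layers of a mouse deviate together (r of 0.259 to 0.686 in 18 of 18 pairs). DESeq2 1.42.0 was an alternative, as were other scaling and filters, sex as a term, a replicate block and leaving out each library. The labels give no litters, so p measures the spread between these mice.

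The members and lists were chosen with earlier results of these data known. Named genes are Foxp2, Cntnap2, the genes that passed, the 12 of smallest p per direction (arms apart, mean of at least 5 CPM, same sign without each library), and in each of 33 lists the first-named measured member and up to 4 of smallest p. Parents of pseudogenes were found with blastn 2.17.0 at 85% identity over at least 80% of the pseudogene. Pseudogene sequences were read from the GENCODE M21 transcripts, whose coordinates are those of mm10; 1 sequence and 1 gene are not reported here.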

Additional observations from a re-analysis of the deposited data

How the results depend on the processing

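The number of genes that passed in L4, 4 in the report, was 189 without a filter on low counts (73 higher, 116 lower), 29 with DESeq2 (8 higher, 21 lower), 7 with a replicate block over numbers 1 and 2 (3 higher, 4 lower) and 3 to 6 when 1 library was left out. It was 4 with RLE size factors, with a stricter filter and in 1 fit over 18 libraries, and 3 with sex as a term. The 3 pseudogenes passed in each of the 14 alternatives. Foxp2 lost its pass with sex as a term (2.74, adjusted p = 0.1004), in the fit of replicates 1 and 2 with no replicate block (2.59, adjusted p = 0.1003) and without GFP mouse 1, GFP mouse 3 or the moFoxp2 mouse (2.36 to 2.98 over the 6 omissions); with the replicate block it was 2.70 (adjusted p = 0.00127). Its adjusted p ranged from 4.59e-57 to 0.1004 over the alternatives. The replicate numbers do not pair the mice (r between same-numbered L4 libraries of -0.254, 0.108 and -0.004).

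For L4 against the other layers, 97 genes passed without a filter on low counts, where Foxp2 passed (1.36, adjusted p = 5.29e-14), and 0 to 1 when a mouse was left out (1 without GFP mouse 3). For huFOXP2 against moFoxp2, 1 gene passed in 1 fit over 18 libraries, and Foxp2 ranged from -0.055 to 0.91 when a mouse was left out.

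Of 755 values for the 54 named genes that did not pass, 692 kept direction and side of the threshold, 51 passed and 12 changed sign. Sign changes were those of Rpsa (-0.19 to 0.12), Rorb (-0.23 to 0.15), Rplp1 (-0.0341 to 0.26) and Tbr1 (-0.19 to 0.0090) when a library was left out; Tbr1 and Rorb also had 0.0090 and 0.014 with the replicate block and 0.0090 and 0.022 in the same libraries with no replicate block. Of 231 list medians, 22 moved by more than the spread. The cause of these changes was not tested. With 3 mice an arm and 10111149 counts in the smallest L4 library, differences of low genes were not detectable.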

Other observations

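Tuba1c, Slc7a11 and Rps24-ps3 split the 6 mice along other lines than the arms. Like Tmem163 below, they were chosen after their values were seen. Tuba1c, an alpha-tubulin, had 4.58 and 102 CPM in L4 of the huFOXP2 mice and 208 CPM in the moFoxp2 mouse, against 82.4, 4.59 and 3.67 CPM in the GFP mice. The same mice were high in every layer: over all 18 libraries its values were 62.9 to 217 CPM in the 3 high mice and 3.81 to 7.20 CPM in the 3 low mice, with both arms in each set. Slc7a11, the cystine-glutamate exchanger, had the same high mice in L4, with 23.1 and 118 CPM in the huFOXP2 mice and 239.6 CPM in the moFoxp2 mouse, against 110.7, 19.2 and 18.8 CPM in the GFP mice. In L2-3 all mice had at least 93.6 CPM.

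Rps24-ps3, another ribosomal protein pseudogene, had 1.21 and 1.07 CPM in L4 of the huFOXP2 mice and 1.24 CPM in the moFoxp2 mouse, against 0.951, 20.3 and 22.5 CPM in the GFP mice. GFP mouse 1 lay with the FOXP2 mice in all 3 layers, and GFP mice 2 and 3 had 21.1 to 28.0 CPM over their libraries. Tmem163, a zinc transporter of synaptic vesicles, followed the arms in L4. It had 8.08 and 6.99 CPM in the huFOXP2 mice and 7.42 CPM in the moFoxp2 mouse, against 11.6, 20.8 and 13.3 CPM in the GFP mice. Its arms did not overlap there, and DESeq2 called the log2 fold change of -1.02 ± 0.23, while edgeR did not (adjusted p = 0.674). On the scale of all 18 libraries the arms were also apart in L5-6, at 35.8 to 43.4 CPM in FOXP2 mice and 47.8 to 55.6 CPM in GFP mice. In L2-3 they overlapped.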
